A study of Danio rerio with 8 samples.

Results

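The 10 genes described here encode transcription factors of the mesenchyme from which the skull forms, namely twist1a, twist1b, twist2, prrx1a, prrx1b, alx1, alx4a, alx4b, foxc1a and foxc1b. They were chosen by name, with earlier results of these data known. Each had exactly 1 row among the 32520 gene rows of the table. Their expression was measured in sorted cells of zebrafish larvae at 4 days post fertilization (dpf), which the sample titles call osteoblasts. The larvae belonged to the line Tg(sp7:sp7-GFP) (ulg071 Tg), in which a GFP reporter sits in the endogenous sp7 gene. They came from a heterozygous transgenic parent crossed to a wild-type one. All libraries therefore carry the reporter allele, and no group lacks it. The authors name AB as the strain of their wild-type fish, and the background of the transgenic line is not stated. Larvae were pooled and dissociated, and living cells were sorted by fluorescence into a population of weak GFP signal, P1, and a population of strong GFP signal, P2. No treatment other than the sort separates both populations, and the gate selects by sp7 activity rather than by tissue of origin. Cells of cranial and other sites may therefore be mixed in each library, and the labels do not give their origin.

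Twist proteins are basic helix-loop-helix (bHLH) factors that bind DNA as dimers, often with a ubiquitous partner called an E protein. Id proteins, which lack a DNA-binding region, hold E proteins in inactive dimers. In mammals, Twist1 is known to restrain Runx2, a master factor of osteoblasts, and loss of a copy of TWIST1 or of its partner TCF12 causes premature closure of cranial sutures. Prrx1 is a homeodomain factor of limb, facial and sutural mesenchyme, Alx1 and Alx4 are homeodomain factors required for the frontonasal skeleton and the skull vault, and Foxc1 is a forkhead factor of cranial and periocular mesenchyme. Zebrafish keep duplicates of several of these genes from an ancient genome duplication, written with the endings a and b.

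There were 5 libraries of P1, numbered 1, 2, 3, 5 and 6, and 3 of P2, numbered 1, 2 and 4, each holding between 7510312 and 13034333 gene reads, so that 3 reads corresponded to 0.230 to 0.399 CPM, the count scaled to the library total. Mitochondrial genes took 21.2% to 35.5% of reads in P1 libraries and 13.2% to 23.0% in P2 libraries, lowest in P2 replicate 4. The bearing of this difference on the fold changes was not tested. Nothing says whether the libraries came from separate clutches, so p-values measure the spread between libraries. The sort was visible in sp7 itself, at 57.7 ± 26.9 (SD, n = 5) normalized reads in P1 against 1009 ± 229 (SD, n = 3) in P2, which limma put at 4.20 ± 0.37 (SE) on the log2 scale with an adjusted p of 2.3e-05. The osteoblast list as a whole summed to 21784 to 36141 normalized reads in P1 and to 107146 to 145377 in P2, while bglap had at most 1 read in any library. Of markers of other cell types, 6 of 15 endothelial, 5 of 9 fin fold, 10 of 15 macrophage, 5 of 12 keratinocyte, 3 of 12 neuron, 3 of 6 periocular, 2 of 7 pigment and 1 of 8 erythroid rows tested fell in P2, and 0 rose. Of chondrocyte genes, those of the nearest skeletal cell type, 3 of 18 rose and 2 fell, and the list summed to 16048 to 24602 normalized reads in P1 and 12900 to 26485 in P2. Of neutrophil genes 1 of 8 rose and 1 fell, and of mural cell genes 1 of 10 rose and 0 fell. No row of these lists was without reads over all libraries. Muscle markers varied strongly by library within both populations. None of 15 was called by limma, 7 were at an unadjusted p under 0.05, and all 15 estimates were negative, with a median of -2.72 on the log2 scale. They summed to 27414 in P1 replicate 1, 40341 in P1 replicate 6 and 12825 in P2 replicate 2, against 1506 to 2958 in the other P1 libraries and 191 and 203 in the other P2 libraries. Over all 18475 genes tested, 14.6% were called at an adjusted p under 0.05, 7.57% higher and 7.05% lower in P2.

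None of the 10 skull mesenchyme factors was called different between P1 and P2 (0 of 10 by limma, against 14.6% of all genes tested). At an unadjusted p under 0.05 there was 1, twist1b, against 31.8% of all genes. Counting models on the recovered reads called 0 of 10 by edgeR, 0 of 10 by voom and 1 of 10 by DESeq2, again twist1b. Over all 18475 genes tested, edgeR called 1982, voom 1292 and DESeq2 3685, so so few calls among 10 genes set the members little apart. The estimated fold changes of 6 members were positive and of 4 negative, with a median of 0.12 on the log2 scale, where the median over all genes tested was 0.00. Summed over the 10 members, normalized reads ranged from 1266 to 1930 in P1 and from 1378 to 1565 in P2, so the populations overlapped. Gene by gene, the libraries of P1 and P2 overlapped for 9 members and were apart for 1, while over all genes tested 20.6% were apart. For 4 members, twist1a, prrx1a, prrx1b and alx4a, the 95% interval of the fold change lay entirely within a 2-fold difference in either direction, as it did for 10.3% of all genes tested. For the remaining 6 the interval reached beyond a 2-fold difference on at least 1 side, and a change of that size is not excluded by these libraries.

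**Figure D1:**
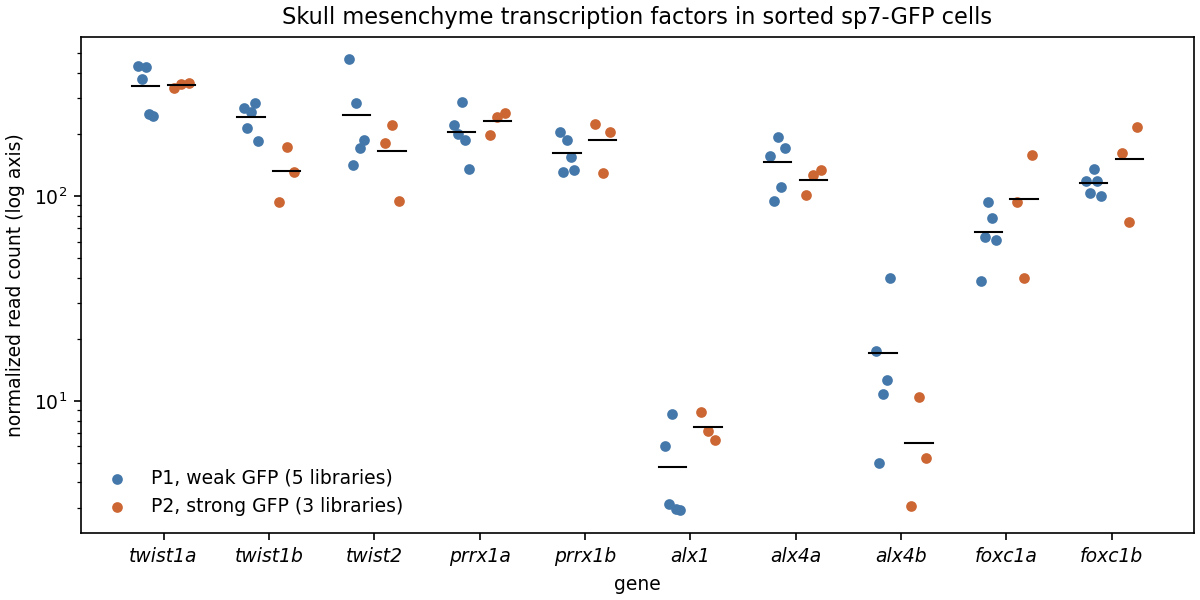
Normalized read counts (log axis) of the 10 skull mesenchyme factors in each of 5 P1 and 3 P2 libraries, with black lines at the group means. The 3 P2 libraries lay below every P1 library for twist1b, and for the other 9 genes the populations overlapped. Counts are not divided by transcript length, so heights should be compared within a gene only.

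Of the Twist genes, twist1a is the zebrafish gene to which the older name twist1 was given. Its P1 libraries held 429, 371, 425, 253 and 246 normalized reads in replicates 1, 2, 3, 5 and 6. Its P2 libraries held 336, 352 and 356 in replicates 1, 2 and 4. The P2 values therefore fell inside the P1 range and close to each other. By limma the difference was 0.05 ± 0.29 (SE) on the log2 scale, with a 95% interval from -0.57 to 0.67 (adjusted p = 0.918). Its sign turned with the scaling of the libraries, which placed it at -0.08 with median of ratios size factors and at -0.05 with trimmed mean scaling, so no direction is given.

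For the paralog twist1b the populations did not overlap. In the P1 libraries it had 269, 216, 259, 285 and 185 normalized reads, and in the P2 libraries 94.0, 173 and 131. Every P2 library was lower than every P1 library, with P2 replicate 1 lowest and P2 replicate 2 nearest to the P1 range. A separation of this kind towards lower values in P2 was found for 8.82% of all genes tested. P2 was at 0.538 of the P1 level, or -0.89 ± 0.29 (SE) on the log2 scale, with a 95% interval from -1.52 to -0.27, an unadjusted p of 0.0086 and an adjusted p of 0.055 (limma), just short of the threshold. This gene was the only member whose call depended on the method. It passed the threshold with median of ratios size factors (adjusted p = 0.032), with trimmed mean scaling (0.041) and in DESeq2 (0.014), and missed it in edgeR (0.053) and voom (0.051). Without P2 replicate 2 the fold change was -1.11 and the adjusted p 0.022, and without P2 replicate 1 it was -0.67 with an adjusted p of 0.224. Over all alternatives the adjusted p ran from 0.014 to 0.655, and the value was negative in each. Fewer cells expressing the gene and less RNA per cell cannot be told apart in such bulk samples.

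Between populations, some marker lists of other cells were lower in P2 as twist1b was. Others, such as the chondrocyte, neutrophil and mural lists, had sums that overlapped between P1 and P2. The fin fold list summed to between 840 and 11528 normalized reads in P1 and 184 to 365 in P2, and the periocular mesenchyme list to 199.9 to 481 in P1 and 65.5 to 172 in P2, with 3 of 6 genes lower. The endothelial list summed to 614 to 889 in P1 and 245 to 434 in P2. Library by library the order was not the same. P2 replicate 1, with the least twist1b, had the lowest sum of the fin fold, periocular mesenchyme and endothelial lists. But P2 replicate 4, with the highest sums of P2 (365, 172 and 434), had less twist1b than P2 replicate 2 (198, 76.0 and 279). In P1, replicate 2 had the highest fin fold sum (11528) and, at 216, less twist1b than all but replicate 6. The part of these cells in the twist1b values was not tested.

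The third Twist gene, twist2, is known in mammals from the dermis and from craniofacial mesenchyme. It had 465, 141, 284, 172 and 188 normalized reads in P1 and 181, 222 and 94.8 in P2. P1 replicate 1 was the highest and P2 replicate 4 the lowest, with the other libraries intermixed. The fold change, -0.54 ± 0.41 (SE) on the log2 scale, had a 95% interval from -1.42 to 0.35 (adjusted p = 0.392, limma). The library with the most twist2, P1 replicate 1, was among those rich in muscle markers, as was P2 replicate 2, which held the most twist2 of P2. Muscle was not tested as a source of these reads, and P1 replicate 6, richest in muscle markers, had only 188.

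Because both twist1 paralogs were measured in the same library, their ratio does not depend on how libraries are scaled. The share of twist1a among the reads of the pair was 61.5%, 63.2%, 62.2%, 47.0% and 57.1% in the P1 libraries, and 78.1%, 67.0% and 73.1% in the P2 libraries. Each P2 library stood above each P1 library. The means were 58.2% ± 6.68 (SD, n = 5) and 72.7% ± 5.58 (SD, n = 3), a difference of 14.6 points (two-sided exact permutation p = 0.0179, the smallest that 56 divisions of the libraries allow). Adjusted over the 4 paralog pairs compared, the exact p was 0.0714, above 0.05. On the log2 scale the ratio of twist1a to twist1b was higher in P2 by 0.95, with the same exact p. Leaving out P2 replicate 1 gave 11.9 points and leaving out P2 replicate 4 gave 14.4 points, both at an exact p of 0.0952. With a library left out there are fewer divisions, so the smallest p that the test allows is larger. In both of these runs, however, the exact p lay above that smallest value. Setting P1 replicates 5 and 6, the lowest in share, against the rest gave a difference at least as large in size. The remaining P2 libraries still stood above each P1 library. Reads common to near-identical stretches of both genes may have been assigned to either, which the processing notes do not detail.

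In the other 3 pairs the libraries of P1 and P2 overlapped. The prrx1a share averaged 55.6% ± 4.73 (SD, n = 5) among P1 libraries and 55.8% ± 9.06 (SD, n = 3) among P2 libraries (exact p = 0.929). For foxc1a it was 36.1% ± 6.64 (SD, n = 5) and 37.7% ± 3.79 (SD, n = 3) (exact p = 0.839). For alx4a the share was 90.1% ± 5.60 (SD, n = 5) and 95.2% ± 2.52 (SD, n = 3), a difference of 5.08 points within the spread of libraries (exact p = 0.214, adjusted 0.429). P1 replicate 6 held the least alx4a relative to alx4b, at 81.2%.

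**Figure D2:**
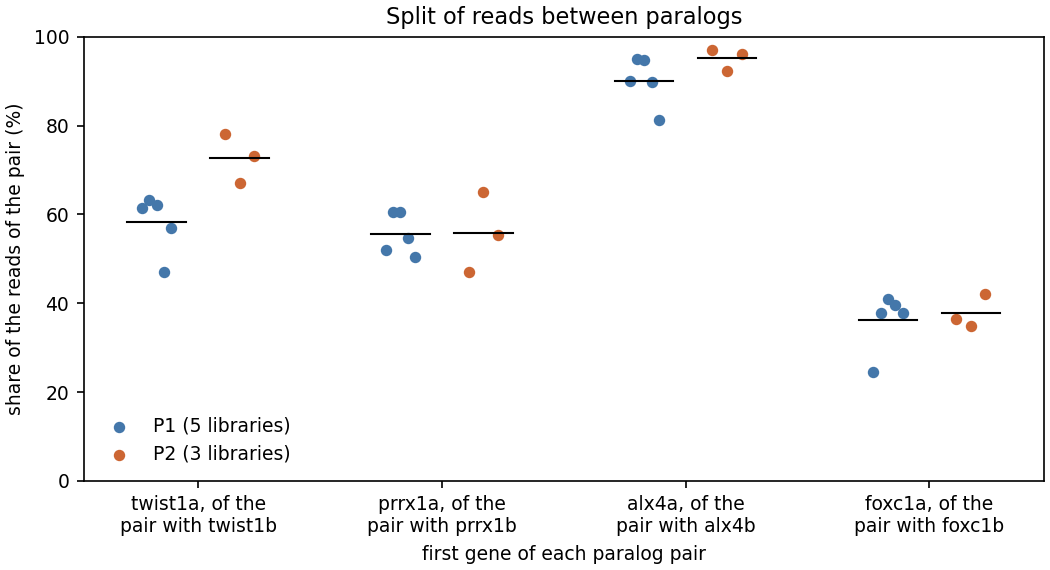
Share of reads (%) falling on the first gene of each of 4 paralog pairs, in each of 5 P1 and 3 P2 libraries, with black lines at the group means. Only for twist1a with twist1b did all P2 libraries (67.0% to 78.1%) lie above all P1 libraries (47.0% to 63.2%).

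Partners and inhibitors of Twist were then examined. Of 4 E protein genes, tcf3a rose in P2 and the other three were not called. This gene, which encodes an E2A-type E protein, had 16.6, 31.3, 20.8, 9.93 and 19.8 normalized reads in the P1 libraries and 94.0, 41.3 and 209 in the P2 libraries. No P2 library overlapped with P1, although P2 replicate 2 lay close to the highest of P1. The rise measured 2.28 ± 0.50 (SE) on the log2 scale (adjusted p = 0.0119, limma). The call was lost without P2 replicate 1 (2.27, adjusted p = 0.058) or without P2 replicate 4 (1.70, adjusted p = 0.066).

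TCF4, encoding another E protein, had 4.29 to 10.6 normalized reads in P1 and 25.4, 7.98 and 27.2 in P2 replicates 1, 2 and 4. Its fold change of 1.40 ± 0.51 (SE) on the log2 scale missed the threshold (adjusted p = 0.081, limma). The adjusted p became 0.016 without P2 replicate 2 and 0.042 in DESeq2. For tcf12, the E protein gene that in humans is linked to suture closure, P1 ranged from 761 to 1570 and P2 from 781 to 1047, with a log2 fold change of -0.24 ± 0.31 (SE). For tcf3b, the paralog of tcf3a, P1 ranged from 478 to 1262 and P2 from 822 to 860, with a log2 fold change of 0.23 ± 0.33 (SE). Neither passed the test (adjusted p = 0.626 and 0.671).

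Of 5 Id genes, id4 fell in P2 and the other four were not called. Its mean was 36.7 ± 20.3 (SD, n = 5) normalized reads over P1 libraries, which ran from 13.7 to 69.5, and 4.33 ± 5.31 (SD, n = 3) over P2 libraries, which ran from 1.17 to 10.5. On the log2 scale it was lower in P2, at -3.11 ± 0.62 (SE) (adjusted p = 0.0072, limma), and the call held without any single library (adjusted p at most 0.048). The genes id1, id2a, id2b and id3, which respond to BMP signals in many tissues, had log2 fold changes of -0.42, -0.26, 0.52 and 0.23 with adjusted p from 0.494 to 0.762. Summed over the 5 Id genes, normalized reads ranged from 1760 to 4767 in P1 and from 2233 to 5432 in P2. Of the neuron list, 3 of 12 genes were lower in P2 as well. Its sums, 464 to 2257 in P1 and 390 to 1022 in P2, overlapped between populations, whereas the id4 values did not. Some other marker lists were also lower in P2. The share of such cells in the id4 reads was not tested.

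Neither prrx1 gene differed between populations beyond its error. For prrx1a the P1 libraries held 222, 201, 287, 187 and 136 normalized reads and the P2 libraries 199, 243 and 256. For prrx1b they held 206, 131, 187, 155 and 134 in P1 and 225, 130 and 205 in P2. Values of both populations were interleaved for each gene. On the log2 scale the fold changes were 0.20 ± 0.29 (SE) for prrx1a and 0.18 ± 0.29 (SE) for prrx1b, with 95% intervals from -0.42 to 0.83 and from -0.45 to 0.81. Neither passed the test (adjusted p = 0.668 and 0.704, limma).

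Of the Alx genes, alx4a is the one with the best depth, at no fewer than 297 reads per library. It had 157, 95.1, 195, 110 and 172 normalized reads in P1 and 101, 126 and 134 in P2. All P2 values lay inside the P1 range. P2 differed from P1 by -0.24 ± 0.31 (SE) on the log2 scale, with a 95% interval from -0.90 to 0.43 (adjusted p = 0.634, limma).

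The paralog alx4b was read far less deeply, with 9 to 123 reads per library. It had 17.5, 5.00, 10.8, 12.6 and 40.0 normalized reads in P1 and 3.05, 10.5 and 5.27 in P2. P1 replicate 6 was the highest and P2 replicate 1 the lowest, and the groups overlapped. With these counts the fold change of -1.17 ± 0.60 (SE) on the log2 scale had a 95% interval from -2.47 to 0.13 (adjusted p = 0.201, limma). The highest alx4b values, in P1 replicates 6 and 1, came from the libraries with the highest muscle marker sums, and a part of muscle cells in them was not tested.

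For alx1, whose loss in humans gives frontonasal dysplasia, 9 to 39 reads were counted per library. It had 6.04, 3.15, 8.63, 2.95 and 2.93 normalized reads in P1 and 8.82, 7.16 and 6.44 in P2. All 3 P2 libraries exceeded 4 of the 5 P1 libraries, and P1 replicate 3 exceeded P2 replicates 2 and 4. At this depth the log2 fold change of 0.65 ± 0.49 (SE) was not distinguishable from 0 (95% interval from -0.40 to 1.71, adjusted p = 0.381, limma).

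The foxc1 genes varied widely within P2. In the P1 libraries foxc1a had 38.4, 62.8, 93.8, 77.8 and 60.8 normalized reads, and in the P2 libraries 93.3, 39.6 and 158. For foxc1b the values were 118, 103.2, 135, 119 and 100.5 in P1 and 163, 74.3 and 218 in P2. For both genes P2 replicate 4 was the highest library and P2 replicate 2 the lowest of P2, so that P2 spanned more than the P1 range for foxc1b. The estimates on the log2 scale were 0.38 ± 0.43 (SE) for foxc1a and 0.27 ± 0.34 (SE) for foxc1b (adjusted p = 0.576 and 0.621, limma). Each estimate was set by single P2 libraries. Without P2 replicate 4 they were -0.07 and -0.06, and without P2 replicate 2 they were 0.91 and 0.72, at adjusted p of 0.104 and 0.088.

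P2 replicate 2 differed from the other P2 libraries in osteoblast regulators also. There runx2b, the bone master factor, had 79.6 normalized reads against 340.0 and 693 in P2 replicates 1 and 4 and at most 39.3 in P1. Its summed muscle markers were 12825, against 191 and 203 in the other P2 libraries. For runx2b, tcf3a, TCF4, foxc1a and foxc1b, P2 replicate 4 was the highest of all libraries and P2 replicate 2 the lowest of P2. The mural cell list, markers of cells that wrap blood vessels and express foxc1 genes in other settings, summed to 774 in P2 replicate 2 and 2514 in P2 replicate 4, against 834 to 1032 in P1. Of its 10 genes, 7 had negative fold changes and 3 positive, with a median of -0.54 on the log2 scale. Its gene pdgfrb is also among the suture and mesenchymal signaling genes listed below. The part of mural cells in the foxc1a and foxc1b values was not tested.

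**Figure D3:**
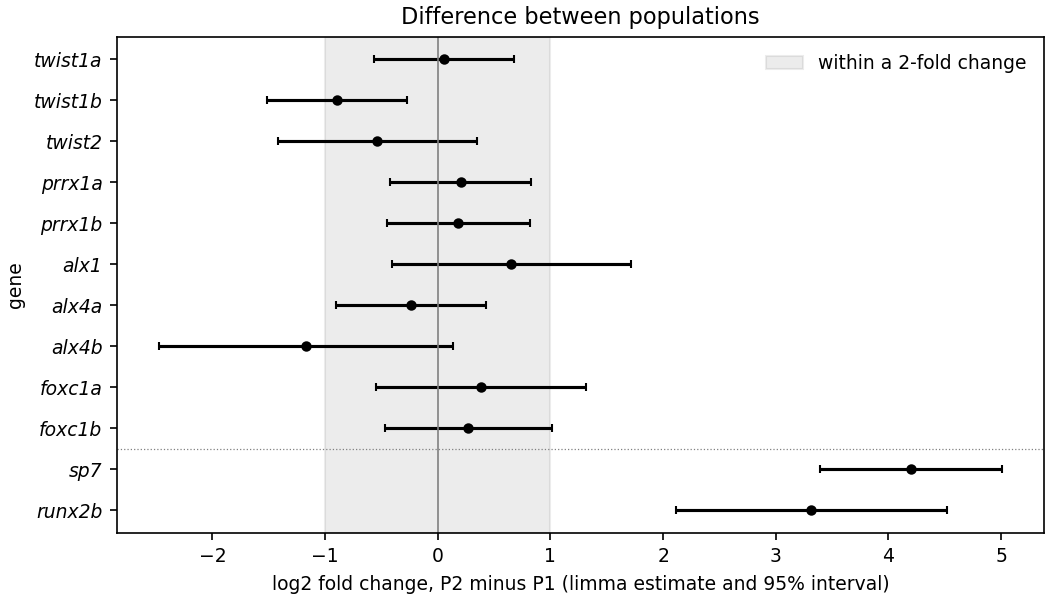
Log2 fold change of P2 minus P1 (limma estimate, with 95% interval as the bar) for the 10 skull mesenchyme factors, and for the osteoblast genes sp7 and runx2b below the dotted line. The grey band marks differences within 2-fold, which holds the point estimates of all members but alx4b (-1.17), whereas sp7 (4.20) and runx2b (3.31) lay far to the right.

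Close relatives of the members were measured for comparison. Of 14 that passed the filter on low counts, 2 (14.3%) rose in P2 and 0 fell, a share called near the 14.6% of all genes tested, with a median log2 fold change of 0.27. The genes that rose were both forkhead genes of the Foxf family, mesenchymal targets of Hedgehog signaling. For foxf2a, P1 libraries ranged from 127 to 224 normalized reads and P2 libraries from 453 to 490.0, which amounts to 1.61 ± 0.27 (SE) on the log2 scale (adjusted p = 0.0028, limma). For foxf1, P1 ranged from 31.9 to 94.1 and P2 from 163 to 317, or 2.06 ± 0.37 (SE) on the log2 scale (adjusted p = 0.0041). Both calls held without any single library, at adjusted p up to 0.021 for foxf2a and 0.031 for foxf1.

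The paralog foxf2b lies next to foxc1b in the RefSeq gene order. It had 48.6 to 121 normalized reads in P1 and 119.8 to 167 in P2, 1.02 ± 0.32 (SE) higher on the log2 scale (adjusted p = 0.052, limma). It passed the threshold with scaling by library size alone (0.045) and without P1 replicate 1 (0.025). The other 11 relatives tested were not called. Of homeodomain genes, shox had a log2 fold change of -0.27 and shox2 of 0.29. Of bHLH genes, twist3, a further Twist gene of fishes, had 46.7 to 94.3 in P1 and 36.6 to 98.9 in P2 (log2 fold change -0.04 ± 0.37 (SE), adjusted p = 0.952). The bHLH gene hand2 was at 0.46 on that scale and tcf15 at -1.30, the latter on at most 22 reads per library. Of forkhead genes, foxl1 had 57.2 to 100.3 in P1 and 48.9 to 50.4 in P2, without overlap (log2 fold change -0.59 ± 0.30 (SE), adjusted p = 0.196). Log2 fold changes of foxd1, foxd2, foxq1a and foxq1b were -0.68, 0.63, 0.26 and -0.12. The relative tcf21 had at most 13 reads and was not tested.

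The wider set of cranial mesenchyme and neural crest factors moved in both directions. Of 42 genes tested, 4 rose and 10 fell in P2, with a median log2 fold change of 0.07. Among those with the lowest adjusted p, 3 fell. They were nr2f1b, an orphan nuclear receptor of cranial crest, at -3.37 ± 0.49 (SE) (adjusted p = 0.0011), zic2a, a zinc finger factor of neural tissue and crest, at -4.14 ± 0.64 (SE) (adjusted p = 0.0016), and sox10, a factor of crest-derived glia and pigment cells, at -3.43 ± 0.55 (SE) (adjusted p = 0.0020, limma). In P1 they had 13.6 to 32.3, 18.4 to 74.4 and 25.4 to 117 normalized reads, and in P2 at most 2.48, 6.73 and 9.37. Pigment cell markers, a list that also holds sox10, summed to 648 to 2076 in P1 and 91.3 to 779 in P2. Whether pigment, glial or neural cells gave these reads was not tested.

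Signaling genes of the sutures and mesenchyme were called upward only, with 9 of 19 tested higher in P2, 0 lower, and a median log2 fold change of 0.77. The FGF receptor genes fgfr3 and fgfr4, whose mammalian counterparts act in cartilage and bone growth or in muscle and liver, rose by 2.89 ± 0.34 (SE) and 2.06 ± 0.31 (SE) on the log2 scale (adjusted p = 0.00027 and 0.0014, limma). The P1 libraries had 311 to 657 normalized reads of fgfr3 and the P2 libraries 2713 to 4449. bmper, a secreted modulator of BMP signals, rose by 4.34 ± 0.52 (SE) (adjusted p = 0.00028). cdh11, a mesenchymal cadherin, rose by 1.43 ± 0.33 (SE) (adjusted p = 0.0158), a call lost without P2 replicate 1 (adjusted p = 0.086) or P2 replicate 4 (0.069). Of the osteoblast list, 14 of 19 rose and 0 fell, with a median of 3.48, led by col10a1a (7.82 ± 0.43 (SE)), the hemichannel gene panx3 (7.18 ± 0.42), the phosphate regulator phex (5.92 ± 0.38) and ifitm5 (7.96 ± 0.55), at adjusted p of 5.1e-07, 1.1e-06, 2.1e-06 and 3.7e-06. The sort by sp7-GFP bears directly on this list.

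**Figure D4:**
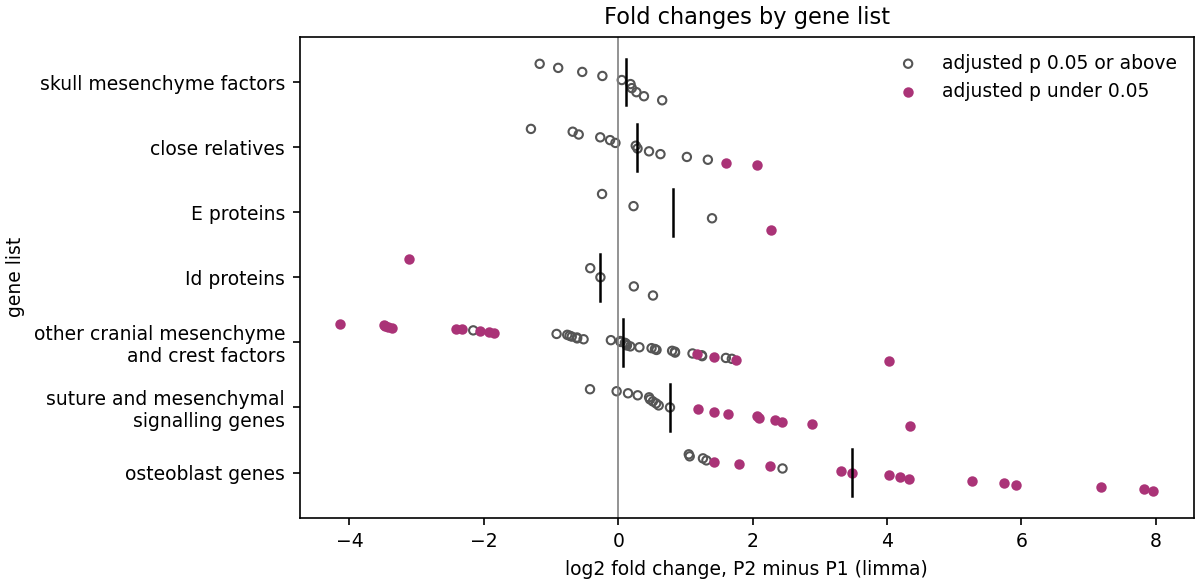
Log2 fold change of P2 minus P1 (limma) for every tested gene of 7 lists, filled where the adjusted p was under 0.05, with a black line at the median of each list. The 10 skull mesenchyme factors (median 0.12) hold no filled point, where 14.6% of all genes tested were called. Medians were 0.27 for their close relatives, 0.81 for E proteins, -0.26 for Id genes and 0.07 for other cranial mesenchyme and crest factors. They were 0.77 for suture and mesenchymal signaling genes and 3.48 for osteoblast genes.

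The gene whose values across the 8 libraries ran most like those of twist1a, the member with the highest mean normalized read count, was cradd (Pearson r = 0.942 of log2 values over 8 libraries), followed by arntl1a (0.941) and ier2a (0.920). These correlations, taken as the highest of all genes tested, are a description and carry no test.

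The spans of some members overlap those of other genes. In the RefSeq annotation of a later assembly than the one used by the authors, alx1 is overlapped by lrriq1 and foxc1a by znf1014, and prrx1a, prrx1b and foxc1b by long non-coding RNAs. These are overlaps of whole gene spans, introns included, and it was not checked whether exons overlap. The library kit does not mark strand, so reads of any shared exon stretch could not be told apart by strand. The low alx1 counts are uncertain to that degree. RefSeq also lists the names of twist1a and twist1b crosswise as synonyms of each other, and the names here are those of the authors' table (ENSDARG00000030402 for twist1a and ENSDARG00000076010 for twist1b).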

How the data were processed

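Larval sp7-GFP cells were sorted into P1 and P2, cDNA was amplified by the SMART-Seq method without molecular identifiers, and tagmented libraries were sequenced single-end. The authors mapped reads to GRCz11 with the nf-core rnaseq pipeline and the Ensembl annotation. They deposited a signal per gene and library, namely gene counts divided by 1 DESeq2 size factor per library, called normalized read counts here. How overlapping genes were counted is not given in the sources used here. Values of P1 and P2 were identical in both deposited tables (0 differing). A further 10 value columns, of whole larvae, match no sample and were not used, nor were the authors' tables of fold changes and p-values. The authors' fit also held whole-larva libraries, so the deposited size factors need not be those of these 8 libraries alone. Median of ratios and trimmed mean scaling, used as alternatives, were computed on these 8 libraries only. Whole reads were recovered by multiplication with the size factor for 100% of values, to within 0.01 of a read.

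The test was limma 3.58.1 in R 4.3.3, with a variance trend, on log2(normalized read count + 1), a scale that understates the change of low genes, over the 18475 genes that reached 10 recovered reads in 3 or more libraries. The Benjamini-Hochberg adjustment ran over all of these genes. Count models on recovered reads (edgeR 4.0.16, which called 1982 genes, and DESeq2 1.42.0, which called 3685) were alternatives, beside 2700 genes for limma. For paralog shares an exact two-sided permutation test enumerated 56 divisions. Scripts were tested on simulated data.

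The members and gene lists were chosen with earlier results of these data known. Named were all members, all E protein and Id genes, close relatives past the filter, and up to 4 genes of each other role list with the lowest adjusted p, of which some are not reported here. Of the identifiers, 29201 (89.8%) were in a table of gene names. No gene rows were found for hand1, lhx6a and the markers and4, il8rb and lect2.1, which were not analysed here. Of the listed meis2 genes, only meis2b was analysed. No genome was used, so positions and sequences are not given. Replicate numbers 1 and 2 occur in both populations. No library was a copy of another, since chi-square per degree of freedom was at least 38.5 for every pair within a population. The floor of 3 reads covers counting error only. The 95% intervals of fold changes are those of limma and rest on the spread between libraries.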

Additional observations from a re-analysis of the deposited data

Results flagged for a closer look

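The share of foxc1a among foxc1a and foxc1b reads was 24.5% in P1 replicate 1, far below the other P1 libraries, which lay between 37.7% and 41.0%. The gap made up 0.802 of the range, above the critical value of 0.710 for 5 libraries. It was the only 1 of 14 sets of P1 values tested for a library far from the others, and chance alone flags about 1 in 20. The same library held the fewest foxc1a reads of any (127) and, at 27414 normalized reads, the second highest sum of muscle markers. Without it the difference in the foxc1a share between populations turned from 1.61 to -1.30 points, with no call in either case.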

How the results depend on the processing

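Limits are set by 3 P2 libraries and by the depth of alx1 and alx4b, which could not be tested when 10 reads were required in every library. With that filter 1741 genes were called, with voom 1292, and on leaving out each library in turn between 876 (without P2 replicate 1) and 3992 (without P2 replicate 2), against 2700. Of these calls 51.8% were higher in P2, against 39.9% with median of ratios size factors, 41.6% with trimmed mean scaling, 42.0% in DESeq2 and 73.8% with 10 reads in every library. These scalings moved the median log2 fold change of all genes by up to -0.12, and the stricter filter to 0.20. The members called numbered 1 with median of ratios, trimmed mean scaling and DESeq2, each time twist1b, and 0 to 1 on leaving out a library. The genes called in the role lists, 40 of 102 tested, numbered 23 (without P2 replicate 1) to 43, and 26 without P2 replicate 4.

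The populations share only replicate numbers 1 and 2, and the sample titles of same-numbered libraries also share a code stem. Whether they hold cells of the same larval pool is not stated. Deviations of same-numbered libraries correlated at 0.00 and -0.13, and those of other pairs at -0.26 to 0.21. So few libraries cannot decide a pairing, and the main test used none. In the 4 same-numbered libraries a replicate block gave 359 called genes, 0 members and 15 role-list genes. The same libraries without the block gave 149, 0 and 11. In both fits twist1a was at -0.22, foxc1b at -0.0045, foxd2 at -0.062 and foxq1a at -0.49.

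Direction changed elsewhere for genes near 0. The fold change of twist1a was -0.084 with median of ratios, -0.052 with trimmed mean scaling, -0.085 with voom, -0.13 with edgeR and -0.13 with DESeq2. That of twist3 was 0.016 with scaling by library size, and that of foxq1a -0.0096 with edgeR and -0.0057 with DESeq2. On leaving out each library in turn, twist1a ranged from -0.058 to 0.14, foxc1a from -0.070 to 0.91, foxc1b from -0.056 to 0.72, twist3 from -0.32 to 0.39, foxq1a from -0.014 to 0.48, foxq1b from -0.39 to 0.081 and id3 from -0.32 to 0.51. The difference in share ranged from 11.8 to 17.4 points for twist1a, from -4.38 to 4.67 for prrx1a and from -1.30 to 3.08 for foxc1a. Of the 10 members, 7 kept their sign in every alternative run. The cause of these changes was not tested.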
